A study of Mus musculus with 8 samples.

Results

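The cell cycle genes described here are a set of 40 genes that encode the machinery of DNA replication and mitosis, measured in single cells of mouse liver. They were taken by symbol from the 55450 genes counted, and all 40 were found. The rule that chose them used no measured value, but the list was drawn up with earlier results of these data known. By role, 6 members (Mcm2 to Mcm7) license origins of replication and 6 (Pcna, Pclaf, Tyms, Rrm1, Rrm2, Tk1) clamp the polymerase or supply nucleotides. E2f1, Ccne1 and Ccne2 act at the G1/S boundary. A further 9 are mitotic cyclins and kinases (Cdk1, Ccna2, Ccnb1, Ccnb2, Aurka, Aurkb, Plk1, Bub1, Bub1b), and 10 build the spindle, the centromere and the cleavage furrow (Birc5, Nusap1, Cenpf, Cenpe, Cenpa, Prc1, Ckap2l, Kif11, Kif20a, Tpx2). Ube2c and Cdc20 serve the anaphase-promoting complex, and Mki67, Top2a, Hmgb2 and Stmn1 act on chromatin or microtubules.

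All 8 mice were wild-type C57BL/6. The 2 control mice received a normal diet and water. NASH with fibrosis (nonalcoholic steatohepatitis) was modelled in 3 mice with high-fat diet, fructose solution and intraperitoneal CCl4, an agent toxic to hepatocytes (HFD+F+CCl4), and in 3 mice with western diet, fructose solution and the same injections (WD+F+CCl4). Because diet, fructose and CCl4 were given together, their parts in any difference from control cannot be told apart.

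Cells that divide pass from G1 through S phase, in which DNA is copied, to G2 and mitosis. E2F factors switch on the replication genes around the G1/S boundary, whereas most mitotic genes are held down in resting cells and released late in the cycle. In adult liver nearly all hepatocytes rest. Mki67 and Top2a, which encode the Ki-67 protein and DNA topoisomerase II alpha, are the usual markers of cycling cells in single-cell data.

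Promoters are printed for the 2 marker genes, which choose the cycling cells below, and for 2 mitotic members and 1 licensing member as examples of the late and the early genes of the cycle. RefSeq windows on GRCm38.p6 matched 33 of the 40 members. Each line holds the 250 bases before the annotated start, 5' to 3' on the strand of the gene. Capitals mark, on either strand, the words TTTGAA and TTCGAA (forms of the cell cycle gene homology region), CCAAT, and TTTCCCGC and TTTGGCGC (forms of the E2F site). The windows are Top2a at chr11:99024190-99024439 (minus strand), Mki67 at chr7:135716380-135716629 (minus strand), Ccnb2 at chr9:70421555-70421804 (minus strand), Bub1b at chr2:118597961-118598210 (plus strand) and Mcm6 at chr1:128359706-128359955 (minus strand).
Top2a: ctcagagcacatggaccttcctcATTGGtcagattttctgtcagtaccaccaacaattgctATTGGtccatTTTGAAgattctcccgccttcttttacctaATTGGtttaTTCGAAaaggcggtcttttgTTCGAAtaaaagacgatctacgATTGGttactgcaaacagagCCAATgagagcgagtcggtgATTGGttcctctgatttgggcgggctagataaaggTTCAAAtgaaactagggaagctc
Mki67: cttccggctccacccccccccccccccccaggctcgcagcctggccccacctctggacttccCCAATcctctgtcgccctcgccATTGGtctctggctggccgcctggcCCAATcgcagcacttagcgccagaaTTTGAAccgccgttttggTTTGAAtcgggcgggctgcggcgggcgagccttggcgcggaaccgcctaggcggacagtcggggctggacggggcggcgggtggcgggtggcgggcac
Ccnb2: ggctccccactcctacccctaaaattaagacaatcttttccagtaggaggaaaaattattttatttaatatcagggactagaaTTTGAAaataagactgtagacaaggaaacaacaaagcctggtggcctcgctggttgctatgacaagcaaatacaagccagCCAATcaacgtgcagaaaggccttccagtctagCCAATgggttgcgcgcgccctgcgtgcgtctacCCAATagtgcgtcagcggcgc
Bub1b: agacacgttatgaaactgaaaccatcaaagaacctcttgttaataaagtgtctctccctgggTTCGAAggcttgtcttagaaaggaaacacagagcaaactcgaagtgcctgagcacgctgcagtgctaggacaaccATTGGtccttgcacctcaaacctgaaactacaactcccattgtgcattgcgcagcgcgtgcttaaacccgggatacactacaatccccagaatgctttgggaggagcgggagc
Mcm6: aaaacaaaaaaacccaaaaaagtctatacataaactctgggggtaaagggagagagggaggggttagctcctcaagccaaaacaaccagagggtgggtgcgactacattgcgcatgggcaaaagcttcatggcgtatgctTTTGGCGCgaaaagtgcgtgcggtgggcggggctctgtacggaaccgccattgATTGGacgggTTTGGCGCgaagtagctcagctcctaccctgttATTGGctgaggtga

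The Top2a window held 2 TTTGAA, 2 TTCGAA and 6 CCAAT words, and that of Mki67 held 2 TTTGAA and 3 CCAAT. Ccnb2 had 1 TTTGAA and 3 CCAAT, and Bub1b had 1 TTCGAA and 1 CCAAT. Mcm6 had neither TTTGAA nor TTCGAA but 2 TTTGGCGC, with 2 CCAAT. Over the 35 windows of the matched members, 82.9% held CCAAT and 54.3% held it at least 2 times, beside 33.8% and 10.1% of all 32851 windows. TTTGAA or TTCGAA stood in 37.1% of the member windows and 17.1% of all windows, in 44.4% of the windows of the mitotic role groups (kinases and cyclins, spindle and anaphase-promoting complex) and in 14.3% of those of the replication and G1/S groups. Either E2F word stood in 21.4% of the replication and G1/S windows, in 0 of the 18 mitotic windows and in 1.3% of all windows. These are matches of letters and not measured binding. Ccne2, Tpx2, Ccna2, Aurkb, Stmn1, Kif20a and Mcm4 had no window in the table used.

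The libraries differed in depth, between 6135827 and 64855024 UMIs (unique molecular identifiers, 1 per captured mRNA molecule). Control replicate 2 stood apart, with the smallest total, the fewest kept cells (4168, against 9846 to 11999 in the other mice) and a median of 992.5 UMIs per kept cell, against 2397 to 4278. Barcodes with more than 500 genes and under 25% of UMIs from mitochondrial genes were kept, which left 80474 cells. Clustering without the cell cycle and histone genes gave 40 clusters, which took the name of a cell type only from marker genes. Of the barcode sequences, 732 (0.918%) were found in more than 1 library. Control phagocytes were few, 494 and 221 cells, and most of them (341 and 151) lay in 1 cluster led by F13a1 and Fn1 that held at most 7 cells of any NASH mouse. In both models together, the phagocytes of a mouse numbered 5465 to 6996. Only 414 cells took the name hepatocyte. A further 2 clusters without a name were led by hepatocyte genes, and each came almost entirely from 1 control mouse. Control replicate 2 gave 2014 of 2038 cells of the first, and control replicate 1 gave 1496 of 1514 cells of the second. Each mouse counts as 1 replicate, and values are listed in the order of the replicate numbers.

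The members are cycling markers, so the share of cells with at least 1 UMI of Mki67 or Top2a was compared between cell types and groups. In all, 9674 of the 80474 cells (12.0%) had such a UMI, of which 3351 had both genes, 2967 only Mki67 and 3356 only Top2a. Mononuclear phagocytes (monocyte-, macrophage- and Kupffer-like cells) gave 42.8% of these cells, T and NK cells 19.9%, dendritic cells (DCs) 14.5% and clusters without a name 11.8%. Granulocytes, mature cells that do not divide, served as the background.

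Among all kept cells the share was 10.2% and 11.4% in the control mice, 12.5%, 17.0% and 11.7% in HFD+F+CCl4 mice and 6.74%, 11.4% and 15.4% in WD+F+CCl4 mice. The groups overlapped, with means of 12.5% ± 3.56 (SD, n = 6) in NASH and 10.8% ± 0.889 (SD, n = 2) in control mice (exact two-sided permutation test, p = 0.607). Of the 1099 marker-bearing cells of control replicate 1, the 2 unnamed clusters led by hepatocyte genes held 279 and 3. In control replicate 2 they held 3 and 199 of 477, in the same order of clusters. In mononuclear phagocytes the share was 5.26% and 4.07% in control mice, 11.9%, 14.6% and 7.56% in HFD+F+CCl4 mice and 6.39%, 9.47% and 16.9% in WD+F+CCl4 mice. All 6 NASH mice were above both control mice, by 6.48 percentage points in the mean (11.1% ± 4.10, n = 6, against 4.67% ± 0.842, n = 2), but the exact permutation test gave p = 0.107 (adjusted over 5 cell types 0.446), where the smallest p of its 28 splits is 0.0357. The control values rest on 26 and 9 cells with a marker UMI.

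T and NK cells had a share of 12.2% and 17.3% in control mice, 13.6%, 23.4% and 21.2% in HFD+F+CCl4 mice and 10.5%, 12.97% and 20.9% in WD+F+CCl4 mice, and the groups overlapped (exact permutation test, p = 0.536).

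DCs carried the markers in 22.1% and 15.5% of cells in control mice, 33.3%, 33.8% and 24.0% in HFD+F+CCl4 mice and 15.1%, 23.4% and 23.2% in WD+F+CCl4 mice. Here 5 of 6 NASH mice were above both control mice (25.5% ± 7.08, n = 6, against 18.8% ± 4.65, n = 2, exact permutation test, p = 0.179). B cells (1.65% to 6.81%) and plasmacytoid DCs (4.94% to 9.52%) had lower shares in each of the 8 mice than T and NK cells. Granulocytes gave 1.961% and 0 of 13 cells in control mice (a count of 0 that allows up to 23.1%) and 1.08% to 4.84% in NASH mice, at a median of 1231 to 1556 UMIs per cell. Granulocyte depth was below that of phagocytes (3284 to 5791 in NASH mice, 4389 and 904 in control mice), of T and NK cells (2105 to 2970, 3023 and 1157) and of DCs (4789 to 6964, 7364 and 1210), except in control replicate 2.

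To compare shares at equal depth, each cell was thinned to 1000 UMIs, and shallower cells were left out. That kept 5240 to 6640 phagocytes of each NASH mouse but 74 of 221 in control replicate 2. Over all cell types, 48.7% of the cells of control replicate 2 reached 1000 UMIs, against 94.2% to 97.0% in the other mice. Marker-bearing cells were deeper (median 6548 UMIs, against 3049 in cells without), so leaving out shallow cells can itself change a share. The phagocyte shares thinned to 1000 UMIs were 0.418% and 2.70% in control mice (2 of 479 and 2 of 74 cells), 4.65%, 6.26% and 2.25% in HFD+F+CCl4 mice and 2.00%, 3.69% and 7.395% in WD+F+CCl4 mice. Only 4 of 6 NASH mice remained above both control mice, and the mean difference was 2.82 percentage points (exact permutation test, p = 0.179). Thinned granulocytes gave 1.79% and 0 of 11 cells in control mice and 0.495% to 4.65% in NASH mice. The thinned phagocytes of both control mice and of 3 NASH mice (2.00%, 2.25% and 3.69%) were below the highest granulocyte value of any mouse, which those of HFD+F+CCl4 replicate 1 equalled to the digits given (4.65%). Before thinning, and at unlike depth, each NASH mouse had a higher share in phagocytes than in granulocytes. In the same 3 mice it was 6.39% against 1.08%, 7.56% against 2.08% and 9.47% against 1.23%. In T and NK cells the thinned share was 6.44% and 16.9% in control mice and 5.24% to 13.6% in NASH mice, and the mean difference turned from +2.32 to -1.23 percentage points. Thinning turned the difference over all cells from +1.64 to -3.17 percentage points as well. The 2 unnamed control clusters led by hepatocyte genes had shares of 9.91% and 18.6% before thinning and 11.6% and 14.5% after. In the first, mostly from control replicate 2, the thinned share rests on 761 of 2038 cells. The part of these clusters and of the cells left out in these turns was not tested.

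**Figure D1:**
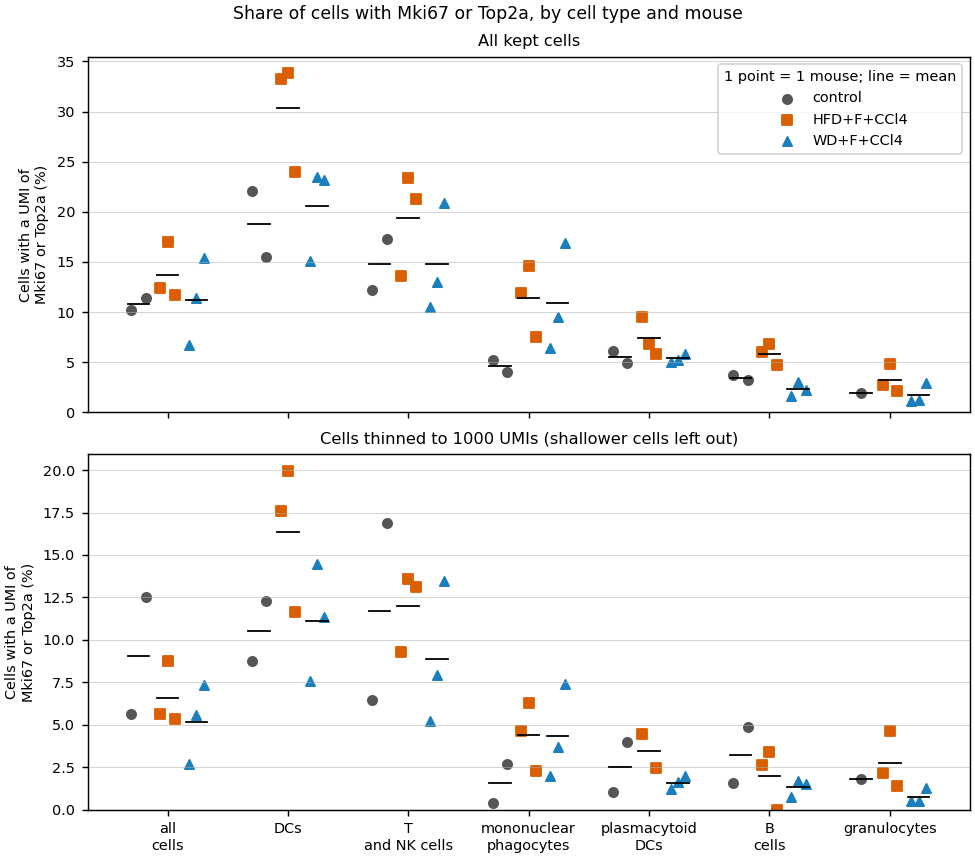
Percent of cells with at least 1 UMI of Mki67 or Top2a (y axis) by cell type (x axis) in each mouse, over all kept cells and over cells thinned to 1000 UMIs. Points are mice, coloured by group, and lines are group means. In phagocytes the 6 NASH mice lie between 6.39% and 16.9% before thinning, above the control mice at 5.26% and 4.07%, and granulocytes stay at or below 4.84%.

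The models were compared with each other in the same way, where 20 splits allow no p under 0.1. DCs of WD+F+CCl4 mice had a lower share than those of HFD+F+CCl4 mice in 3 of 3 mice (20.6% ± 4.77 against 30.4% ± 5.54, n = 3 each, exact permutation test, p = 0.1, adjusted over 5 cell types 0.167). The closest shares were 23.4% and 24.0%. These shares were not thinned, and the median UMIs per DC were 5613, 4789 and 5758 in WD+F+CCl4 mice and 5661, 6687 and 6964 in HFD+F+CCl4 mice. B cells (-3.53 percentage points) and plasmacytoid DCs (-2.002) also stood lower in 3 of 3 WD+F+CCl4 mice, at the same p. These values rest on few cells. For plasmacytoid DCs the highest WD+F+CCl4 share (5.85%) nearly equalled the lowest HFD+F+CCl4 share (5.851%). The highest, 9.52% in HFD+F+CCl4 replicate 1, was 2 of 21 cells. The B cell share of HFD+F+CCl4 replicate 3 was 1 of 21 cells. Phagocytes differed by -0.459 percentage points (p = 0.9, exact permutation test), far less than the spread between mice. WD+F+CCl4 replicate 1 was the lowest NASH mouse in 6 of 6 cell types. The difference between phagocytes and T and NK cells in the change from control to NASH was 4.15 percentage points and was not past the test (exact permutation test, p = 0.357).

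Within the cell types, the marker-bearing cells were unevenly spread over clusters that had been built without any member. A cluster without a name, led by Camp, Ngp, Ltf, Elane and Mpo, genes of the granules of immature neutrophils, had the highest share, 53.6% of 487 cells (35.3% thinned). Its share was 67.5% in HFD+F+CCl4 replicate 3 and 53.8%, 37.7% and 63.6% in WD+F+CCl4 mice, whereas the mature granulocyte cluster had 2.203%. DCs led by Xcr1 and Clec9a, the cross-presenting conventional DCs, followed with 35.7% (20.3% thinned). Their share was 24.6% and 16.5% in control mice, 51.3%, 45.4% and 34.4% in HFD+F+CCl4 mice and 40.8%, 48.4% and 35.7% in WD+F+CCl4 mice, so that all 6 NASH mice were above both control mice. These shares per mouse were not thinned. Over all DCs the median was 7364 and 1210 UMIs in control mice and 4789 to 6964 in NASH mice. DCs led by Cd209a had 21.7% (12.0% thinned).

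Among phagocytes, the cluster led by Vsig4, Clec4f and Marco, genes of Kupffer cells, had 30.2% of its 1516 cells with a marker UMI (13.9% thinned). Only 10 of its cells came from control mice, and most came from 3 NASH mice. WD+F+CCl4 replicate 3 gave 719 (35.5% with a marker UMI), and HFD+F+CCl4 replicates 1 and 2 gave 499 (22.7%) and 221 (30.8%). The other NASH mice gave 8 to 32 cells each. The cluster led by Pf4, Gpnmb and Trem2 had 20.2% (7.67% thinned), with 17.3%, 20.4% and 13.4% in HFD+F+CCl4 mice and 8.94%, 17.2% and 28.6% in WD+F+CCl4 mice. Another phagocyte cluster, of 3406 cells, had 14.2% (7.90% thinned). The following monocyte clusters were lower. The cluster led by Vcan and Chil3 had 8.71% (3.14% thinned), the cluster led by Cd300e had 3.69% (1.38% thinned), and the control monocytes led by F13a1 and Fn1 had 4.58% (0.775% thinned). Most control phagocytes thus lay in a cluster with few NASH cells, and the share differed between clusters. A further phagocyte cluster held 57 and 25 cells of the control mice. Its share was 7.02% and 12.0% in control mice and 9.84% to 19.3% in NASH mice, which overlapped. The part of the clusters in the difference between the groups was not tested.

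T cells led by Gzma, Cd8a, Lag3, Pdcd1 and Tox, markers of activated or exhausted CD8 T cells, had 32.3% (20.2% thinned) and came from 3 mice, at 36.3% and 36.2% in HFD+F+CCl4 replicates 2 and 3 and 23.8% in WD+F+CCl4 replicate 3. The cluster with Foxp3, the factor of regulatory T cells, had 23.4% (13.7% thinned), with 24.1% in control replicate 1 and 15.4% to 30.8% in NASH mice. The main control T and NK cluster, of which 97.8% of cells were from control mice, had 12.4%. The T cell cluster led by Ccl5 and Gzmk had 23.5% and 44.9% in the control mice and 8.39% to 21.6% in NASH mice. Cells of 2 further phagocyte clusters, with 3889 and 2564 cells, came mostly from HFD+F+CCl4 replicate 1 (2846 and 2291), as did 554 of 638 cells of a DC cluster, and Hspa1a was among the leading genes of all of them.

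**Figure D2:**
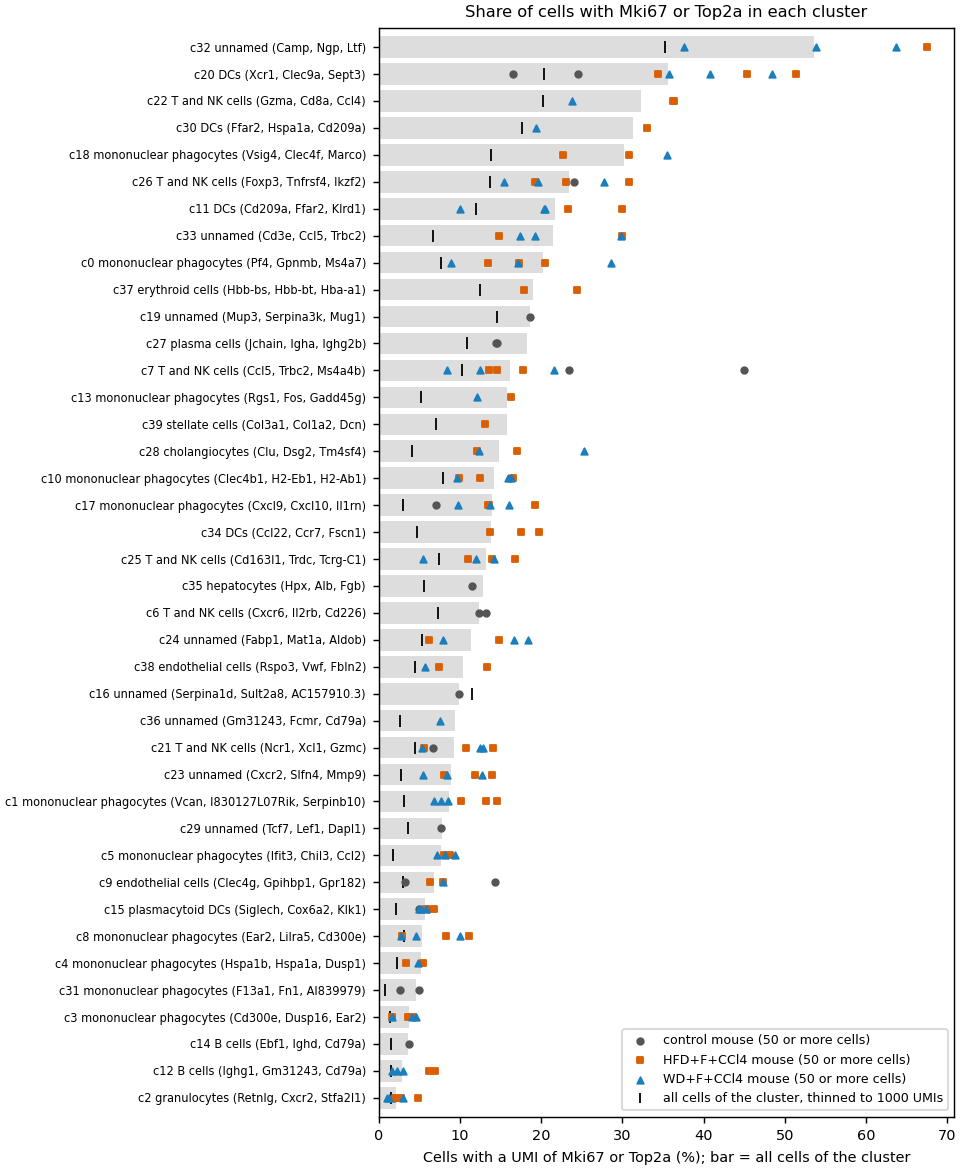
Percent of cells with a UMI of Mki67 or Top2a (axis from 0) in each cluster, ordered by share. Bars are the pooled share, points are mice with at least 50 cells in the cluster, and ticks are the share after thinning to 1000 UMIs. The cluster led by Camp and Ngp reaches 53.6% and the mature granulocytes 2.203%.

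To see whether the other members follow the markers, cells with a UMI of Mki67 or Top2a were compared with cells without, within each mouse. The other 38 members did not choose the cells. In mononuclear phagocytes (7 mice, control replicate 2 had 9 marker-bearing cells and was left out) all 37 members tested were higher in the marker-bearing cells (edgeR quasi-likelihood test with mouse as block, Benjamini-Hochberg adjusted p under 0.05), beside 36.6% of all genes called in either direction and 17.9% called higher. Their median log2 fold change was 4.41. In T and NK cells (8 mice) 38 of 38 were higher, beside 39.2% and 19.8%, with a median of 4.66. Marker-bearing cells were deeper, with median UMIs of 7238 against 4278 in phagocytes and 3956 against 2508 in T and NK cells, and held more doublets by rank (11.1% against 5.75%, and 9.86% against 6.27%). All 37 and 38 members stayed called with doublets removed.

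Nusap1, which bundles spindle microtubules, was 77.3-fold higher in phagocytes and 84.2-fold in T and NK cells (log2 6.27 ± 0.19 and 6.40 ± 0.16, SE). Cenpf, a kinetochore protein, was higher by 5.74 and 6.12 on the log2 scale, Ccna2, the cyclin of S phase and G2, by 5.57 and 5.78, and Plk1, a kinase of mitotic entry, by 5.51 and 5.71. By role, the median log2 fold change in phagocytes and in T and NK cells was 5.24 and 5.43 for the spindle group, 4.42 and 5.14 for mitotic cyclins and kinases and 4.59 and 5.20 for the anaphase-promoting complex. The G1/S group had 3.68 and 2.91, the replication clamp and nucleotide group 3.34 and 3.43 and the licensing group 1.90 and 1.93. Any cycling cell with no UMI of either marker counted as a cell without, and what the choice of markers added to this order was not tested. Within the clamp group Pclaf, which binds the clamp, was higher by 5.67 and 5.69, close to the spindle members.

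The licensing members, Pcna and E2f1 had smaller differences in phagocytes. Licensing members ranged from 1.47 (Mcm4) to 2.27 (Mcm7) in phagocytes. Pcna, the polymerase clamp that also serves DNA repair, was higher by 0.94 ± 0.08 in phagocytes and 1.67 in T and NK cells, and E2f1 by 0.82 ± 0.08 and 2.69 ± 0.16. In phagocytes the marker-bearing cells held 18.1% of all UMIs, but 94.9% of those of Nusap1, 30.2% of E2f1, 32.5% of Pcna and 43.1% of Hmgb2, a chromatin protein present in most phagocytes. The median over the 38 members was 83.6%, with 31 of 38 over 50%. In T and NK cells the shares ran from 54.7% (Mcm2) to 97.3% (Nusap1), with a median of 91.6%, where these cells held 28.1% of all UMIs.

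**Figure D3:**
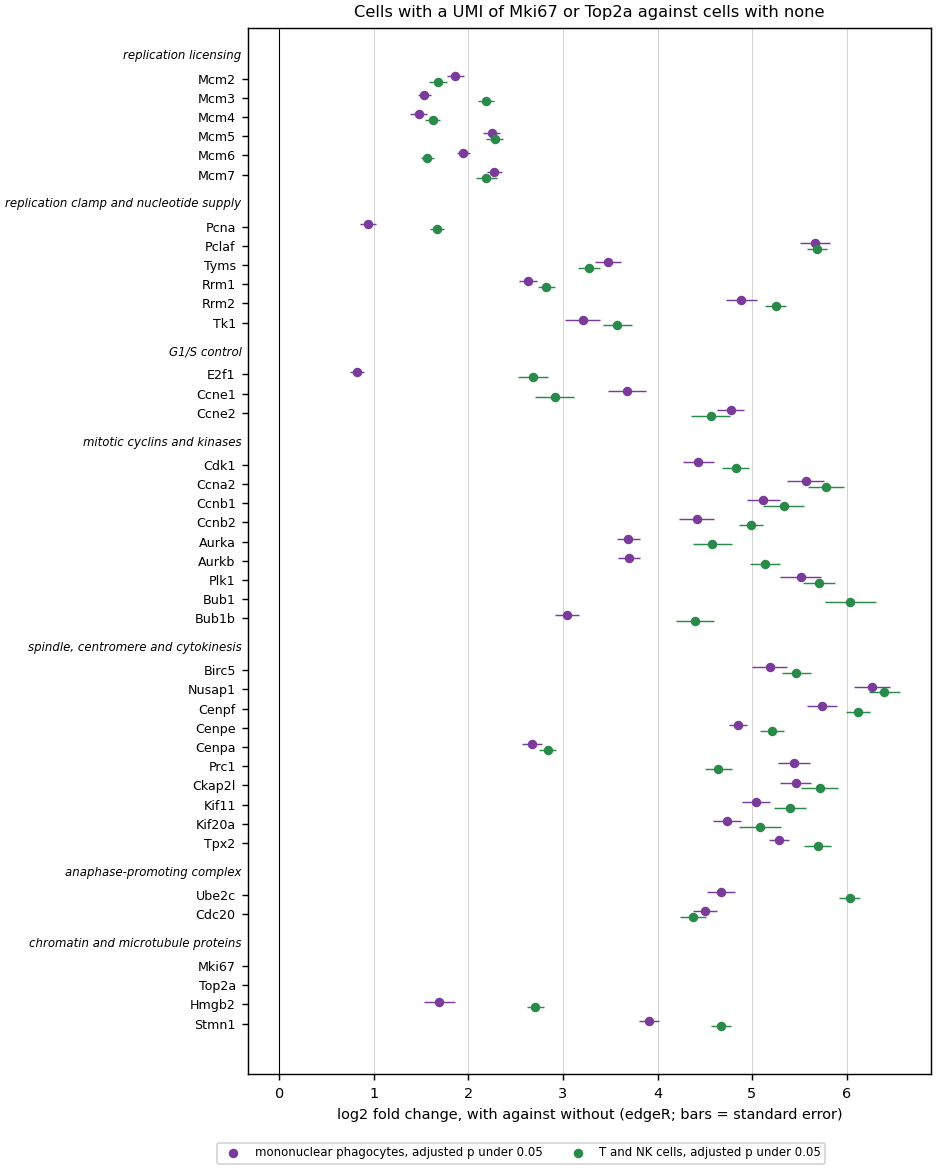
Log2 fold change (x axis, error bars SE) of the 38 members other than Mki67 and Top2a, in cells with against cells without a UMI of either marker, in phagocytes and in T and NK cells, grouped by role. Every plotted value is above 0, from 0.82 (E2f1, phagocytes) to 6.40 (Nusap1, T and NK cells), and Bub1 was tested only in T and NK cells.

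The sum of the members without Hmgb2 in the marker-bearing phagocytes was 3033, 3702 and 2312 CPM (UMIs of a gene scaled to the same total in every sum) in HFD+F+CCl4 mice and 2828, 3366 and 4090 in WD+F+CCl4 mice, 7.03 to 9.23 times that of the cells without markers in the same mouse. In control replicate 1 it was 405 CPM in 26 cells, 1.68 times the other phagocytes, and in control replicate 2 1818 CPM in 9 cells, 4.90 times. The marker-bearing control phagocytes thus stood below those of every NASH mouse. Those of control T and NK cells did not, with 5909 and 7133 CPM against 4417 to 7242 in NASH mice and ratios of 8.60 to 11.0 over the 8 mice.

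**Figure D4:**
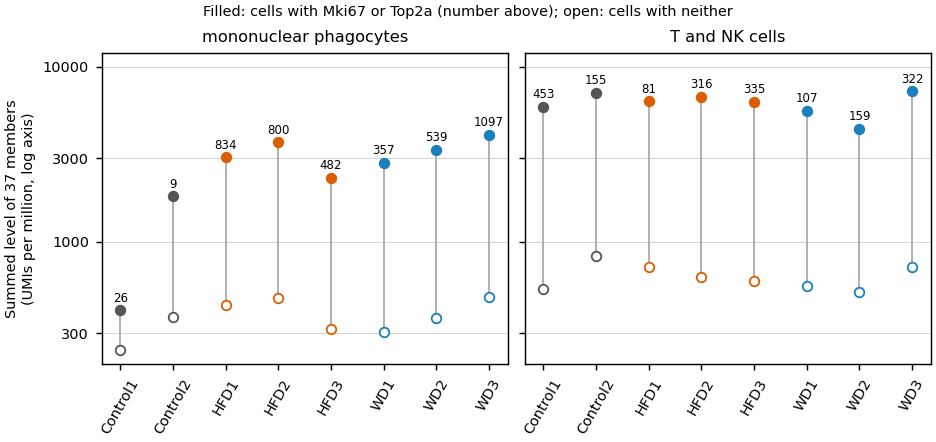
Summed CPM of the members other than Mki67, Top2a and Hmgb2 (log axis) in each mouse, in cells with a marker UMI (filled, number of cells above) and without (open), in phagocytes and in T and NK cells. The filled points of the control phagocytes, at 405 and 1818 CPM, lie below the NASH range of 2312 to 4090.

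Of 137 other cell cycle genes, 124 were tested in phagocytes and 134 in T and NK cells. All 41 tested S phase genes and 56 of 57 G2 and M phase genes were higher in marker-bearing phagocytes, and 42 of 42 and 66 of 67 in T and NK cells. The G1 cyclins and brakes moved both ways. Cdkn1b, the inhibitor p27, was lower by 0.54 ± 0.08 in phagocytes and 0.41 ± 0.07 in T and NK cells, and Ccnd2, cyclin D2, by 0.40 ± 0.09 and 0.79 ± 0.07. Cdkn2c, the inhibitor p18, was higher in both (2.46 ± 0.13 and 1.78 ± 0.14). Ccnd1 was higher in phagocytes (0.46, adjusted p = 0.000313) and did not pass the test in T and NK cells (-0.13, adjusted p = 0.644), and Ccnd3 passed in neither (-0.27 and -0.06). Cdkn1a, the inhibitor p21, was lower in phagocytes (-0.22, adjusted p = 0.0488) and higher in T and NK cells (0.94, adjusted p = 0.000107), all by edgeR's quasi-likelihood test.

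Outside both lists, the largest rises in marker-bearing phagocytes among well-expressed genes were the replication-dependent histones Hist1h1b (4.27 on the log2 scale), Hist1h2ap (4.02) and Hist1h2ae (3.62), then H2afx (2.65), Ezh2 (2.17), Prtn3 (1.91), Tubb4b (1.71), Hist1h1e (1.71), Hmgn2 (1.66) and Cbx5 (1.65). The largest falls were Tppp3 (-1.45), Gm31814 (-1.44), Dusp16 (-1.41), Ace (-1.41) and Pglyrp1 (-1.39). In T and NK cells the rises were Hist1h3c (7.13), Hist1h1b (6.07), Hist1h2ap (5.35), Hist1h2ae (5.31), Tcf19 (3.03), H2afx (3.01), Lockd (2.59), Ezh2 (2.52), Tuba1b (2.37) and Gm43305 (2.35). The falls there were Hba-a1 (-2.10), Hbb-bs (-2.06), Gzmc (-1.64), Gm4956 (-1.63) and Hba-a2 (-1.61).

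Comparing the groups over all kept cells, E2f1, the transcription factor that opens the G1/S transition, was the 1 member that rose. Its level was 9.77 and 9.99 CPM in control mice, 20.7, 22.3 and 16.4 in HFD+F+CCl4 mice and 17.1, 19.1 and 24.97 in WD+F+CCl4 mice. All 6 NASH mice were above both control mice. The log2 fold change was 1.11 ± 0.21 (SE) in HFD+F+CCl4 mice (edgeR quasi-likelihood test, Benjamini-Hochberg adjusted p = 0.0114) and 1.22 ± 0.21 in WD+F+CCl4 mice (edgeR, adjusted p = 0.00703). Without the clusters that took no name the values were 1.06 and 1.23, and E2f1 was still called. The HFD+F+CCl4 call was lost without control replicate 2 (1.06). Both comparisons share the 2 control mice. With 1 of 40 members called in each, the set was below the 18.9% and 21.4% of all tested genes, and 2 and 1 members had an unadjusted p under 0.05 (34.5% and 35.9%). In these sums more cells of a type and more RNA per cell cannot be told apart.

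Mki67 over all cells was 91.8 and 97.3 CPM in control mice, 74.4, 129 and 87.8 in HFD+F+CCl4 mice and 39.8, 85.8 and 108 in WD+F+CCl4 mice. Top2a was 122 and 118 CPM in control mice, 96.9, 184 and 127 in HFD+F+CCl4 mice and 69.2, 125 and 150 in WD+F+CCl4 mice. For both markers the groups overlapped. Mcm2, a subunit of the replicative helicase, was 47.4 and 43.9 CPM in control mice against 18.7 to 31.7 in NASH mice, all 6 below both control mice, but the fits gave -0.85 ± 0.26 (edgeR, adjusted p = 0.062) and -0.61 ± 0.27 (adjusted p = 0.145). Mcm4, Rrm2 and Ccne1 were also below both control mice in all 6 NASH mice, which 25.6% of all genes were, whereas E2f1 alone was above (16.4% of all genes).

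The median member was at 0.24 and 0.09 (log2) in the high-fat and the western diet model, against -0.01 and -0.06 over all genes. In HFD+F+CCl4 mice 29 of 40 were above 0, with Mcm2, Mcm4, Mcm5, Mcm6, Pcna, Pclaf, Rrm1, Rrm2, Ccne1, Kif11 and Hmgb2 below 0. In WD+F+CCl4 mice 23 were above 0, and the 17 below were the same 11 with Tyms, Ccnb2, Cenpf, Cenpa, Ube2c and Mki67. The members summed to 2232 and 2057 CPM in control mice, 1692, 2660 and 2019 in HFD+F+CCl4 mice and 1382, 1867 and 2248 in WD+F+CCl4 mice, which overlapped. Between the models 0 members were called by edgeR, 0 by DESeq2 and 0 had an unadjusted p under 0.05, beside 3.88% of all genes.

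In mononuclear phagocytes 39 of 40 members had a positive fold change in each model. Only Stmn1 and Bub1b rose past the test, in both models, so 2 of 40 members were called beside 5.26% of all genes in HFD+F+CCl4 and 7.62% in WD+F+CCl4 mice. The median member stood at 2.38 and 2.54 on the log2 scale, against 0.12 over all genes in both. These fits rest on few control molecules. The 2 control mice together gave 1789 UMIs of the 40 members, and 10 members had at most 3.

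Stmn1, which encodes the microtubule-destabilizing protein stathmin, was 6.58 and 11.3 CPM in control mice (14 and 3 UMIs), 104, 135 and 47.2 in HFD+F+CCl4 mice and 43.8, 68.0 and 167 in WD+F+CCl4 mice. Its log2 fold change was 3.65 ± 0.86 (edgeR, adjusted p = 0.0458) and 3.68 ± 0.86 (edgeR, adjusted p = 0.037). Bub1b, the spindle checkpoint kinase BubR1, was 1.41 and 7.53 CPM in control mice (3 and 2 UMIs), 17.6, 21.9 and 12.9 in HFD+F+CCl4 mice and 11.9, 13.6 and 21.9 in WD+F+CCl4 mice. It rose by 2.92 ± 0.64 (edgeR, adjusted p = 0.0358) and 2.83 ± 0.64 (edgeR, adjusted p = 0.0333). For both genes all 6 NASH mice were above both control mice. Neither call survived leaving out either control mouse, with which Bub1b ran from 1.44 to 3.56 and from 1.36 to 3.48 in the models, and Stmn1 from 3.30 to 3.78 and from 3.32 to 3.82. Both HFD+F+CCl4 calls were also lost when replicate 1 or 2 of their own group, or replicate 2 of WD+F+CCl4, was left out. Of the WD+F+CCl4 calls, both were lost without WD+F+CCl4 replicate 2 (2.92 for Bub1b and 3.86 for Stmn1), and that of Stmn1 also without HFD+F+CCl4 replicate 1 (3.67).

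The markers themselves did not pass the adjusted test. Mki67 was 5.64 and 26.4 CPM in control mice (12 and 7 UMIs), 61.3, 81.9 and 34.7 in HFD+F+CCl4 mice and 25.7, 58.2 and 102 in WD+F+CCl4 mice (2.65 ± 0.85, edgeR adjusted p = 0.106, and 2.78 ± 0.85, adjusted p = 0.0829). Top2a was 7.53 and 30.1 CPM in control mice, 70.8, 111 and 42.6 in HFD+F+CCl4 mice and 40.5, 75.5 and 147 in WD+F+CCl4 mice (2.64 ± 0.82, edgeR adjusted p = 0.0952, and 2.94 ± 0.82, adjusted p = 0.0622). Top2a did not overlap between NASH and control mice, while for Mki67 the lowest WD+F+CCl4 mouse lay just under control replicate 2.

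**Figure D5:**
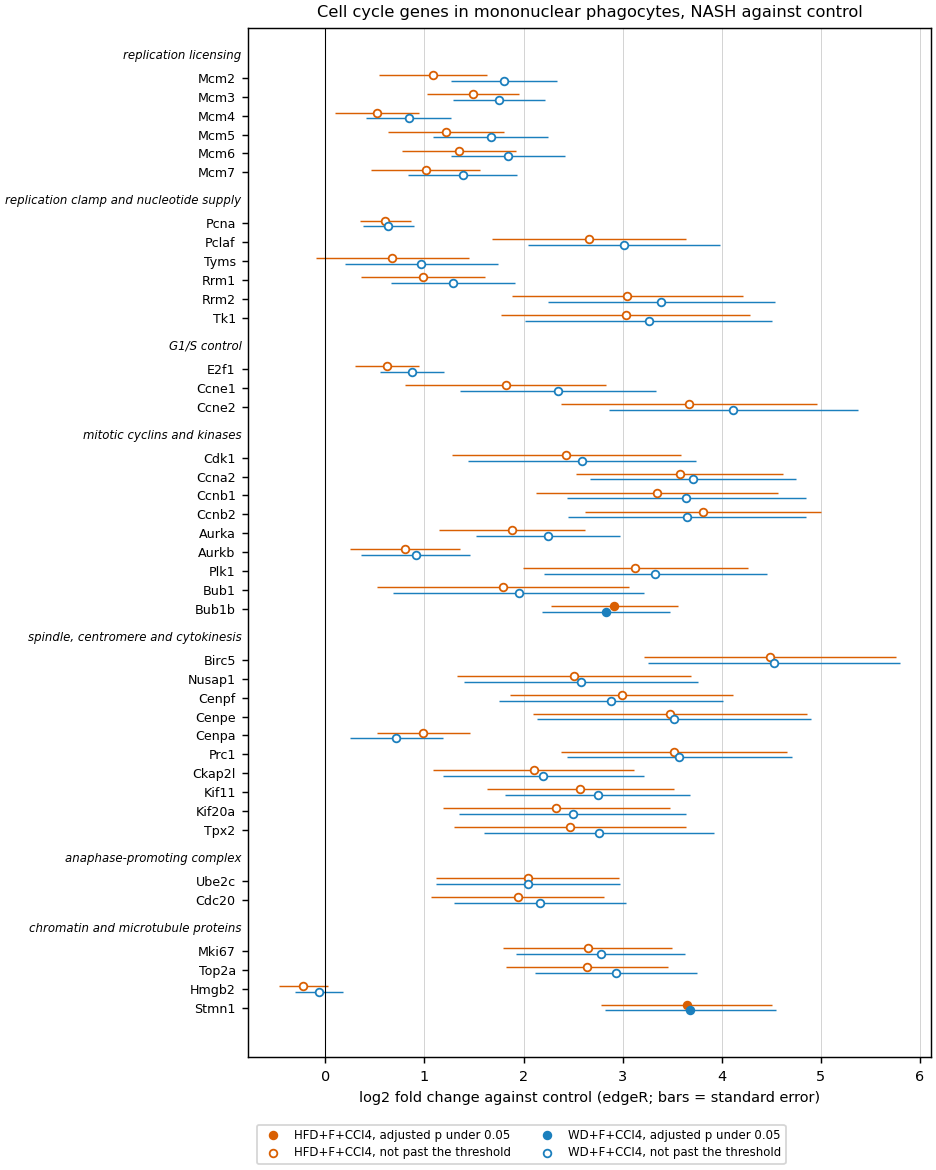
Log2 fold change against control (x axis, error bars SE) of the 40 members in mononuclear phagocytes, for the high-fat and the western diet model, grouped by role. Filled symbols mark an adjusted p under 0.05, which are Stmn1 (3.65 and 3.68) and Bub1b (2.92 and 2.83), and Hmgb2 alone lies below 0.

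Of the licensing members, which load the helicase onto origins, Mcm7 was 17.4 and 30.1 CPM in control mice, 39.6, 54.5 and 30.3 in HFD+F+CCl4 mice and 25.2, 50.6 and 78.7 in WD+F+CCl4 mice. Mcm3 was 16.9 and 7.53 CPM in control mice, 38.4, 60.4 and 31.4 in HFD+F+CCl4 mice and 32.6, 55.7 and 61.3 in WD+F+CCl4 mice (1.49 ± 0.47, edgeR adjusted p = 0.0977, and 1.75 ± 0.47, adjusted p = 0.054). Mcm3 did not overlap with control, Mcm7 did through WD+F+CCl4 replicate 1. The group median was 1.15 and 1.71.

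Pcna was 86.1 and 120 CPM in control mice, 149, 174 and 123 in HFD+F+CCl4 mice and 120, 124 and 191 in WD+F+CCl4 mice (0.61 ± 0.26, edgeR adjusted p = 0.202, and 0.64 ± 0.26, adjusted p = 0.168). Pclaf, the factor that binds it, was 2.35 and 22.6 CPM in control mice, 27.9, 53.6 and 22.7 in HFD+F+CCl4 mice and 21.6, 36.9 and 69.7 in WD+F+CCl4 mice, and WD+F+CCl4 replicate 1 lay under control replicate 2. E2f1 was 13.2 and 11.3 CPM in control mice, 22.4, 23.4 and 15.1 in HFD+F+CCl4 mice and 19.5, 20.02 and 29.4 in WD+F+CCl4 mice. It did not overlap, yet did not pass the test (0.62 ± 0.33, edgeR adjusted p = 0.284, and 0.87 ± 0.33, adjusted p = 0.135). Ccne2, cyclin E2, had 1 control UMI and 2.94 to 10.8 CPM in NASH mice, a ratio of summed levels of 13.2 (counting interval 2.36 to 522) and 17.7 (3.16 to 699).

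Cdk1, the kinase that drives mitosis, was 1.88 and 11.3 CPM in control mice, 21.4, 25.1 and 7.80 in HFD+F+CCl4 mice and 8.72, 12.7 and 35.9 in WD+F+CCl4 mice, and overlapped through 1 mouse of each model. Its partner Ccnb2, cyclin B2, was 0.941 and 3.77 CPM in control mice, 24.7, 24.1 and 8.64 in HFD+F+CCl4 mice and 9.01, 10.0 and 29.4 in WD+F+CCl4 mice. With 3 control UMIs, its ratio was 15.3 (counting interval 5.21 to 74.0) and 13.8 (4.71 to 67.0). Ccna2 (12.3 and 13.6), Ccnb1 (11.2 and 14.0) and Plk1 (9.08 and 10.4) had similar ratios on 2 or 3 control UMIs, with lower bounds from 3.08 to 4.65. The mitotic cyclins and kinases summed to 17.9 and 37.7 CPM in control mice and 63.7 to 199 in NASH mice, without overlap.

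Birc5, survivin of the chromosomal passenger complex, was 1.41 and 0 CPM in control mice, 31.1, 41.1 and 15.4 in HFD+F+CCl4 mice and 12.9, 18.9 and 53.9 in WD+F+CCl4 mice, a ratio of 23.3 (counting interval 7.95 to 113) and 24.4 (8.35 to 118). Cenpa, the histone variant of the centromere, was 14.1 and 33.9 CPM in control mice, 47.4, 41.2 and 23.5 in HFD+F+CCl4 mice and 22.9, 23.1 and 42.0 in WD+F+CCl4 mice, and overlapped. Ube2c, the ubiquitin-conjugating enzyme that works with the anaphase-promoting complex, was 2.82 and 22.6 CPM in control mice, 30.9, 32.0 and 12.8 in HFD+F+CCl4 mice and 15.3, 15.9 and 40.6 in WD+F+CCl4 mice. Cdc20, the activator of that complex, was 2.35 and 3.77 CPM in control mice, 12.2, 13.7 and 4.89 in HFD+F+CCl4 mice and 5.92, 9.78 and 18.5 in WD+F+CCl4 mice. Of these, Birc5 and Cdc20 did not overlap with control.

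Hmgb2 was the exception in both models, at 459 and 441 CPM in control mice, 288, 438 and 402 in HFD+F+CCl4 mice and 398, 434 and 380 in WD+F+CCl4 mice. All 6 NASH mice were below both control mice, by small amounts (-0.22 ± 0.24 and -0.07 ± 0.24). Hmgb2 was the 1 member entirely below, where 14.5% of all genes were, and 22 of 40 members were entirely above, where 26.2% of all genes were. The number entirely above is a larger share of the members, but many of these had few control UMIs. Over the 30 members with more than 3 control UMIs the median was 1.99 and 2.18, with 29 of 30 above 0. At an unadjusted p under 0.05 there were 21 and 28 members (23.2% and 25.2% of all genes), and DESeq2 called 13 and 20 (9.99% and 11.8% of all genes). By role, the median in the models was 2.92 and 2.83 for mitotic cyclins and kinases, 2.54 and 2.75 for the spindle group, 1.99 and 2.11 for the anaphase-promoting complex and 1.82 and 2.35 for G1/S control.

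In the phagocytes of the models set against each other 0 members were called by edgeR, with 1 (Mcm2) at an unadjusted p under 0.05 beside 5.41% of all genes, and DESeq2 called 0. The members summed to 1351, 1827 and 1048 CPM in HFD+F+CCl4 mice and 1028, 1384 and 2125 in WD+F+CCl4 mice, against 721 and 964 in control mice. Of the other 137 cell cycle genes, 1 (E2f2) fell in HFD+F+CCl4 phagocytes and 8 rose in WD+F+CCl4 phagocytes (Smc2, Cdk6, Lig1, E2f4, Spc24, Cdc25a, Mxd3, Chaf1b), beside the 5.26% and 7.62% of all genes called. The G2 and M phase genes had a median of 2.19 and 2.32, the S phase genes of 1.03 and 1.24 and the G1 genes of 0.11 and 0.04. None of the 6 G1 regulators followed here passed the test in phagocytes. Their values in the models were -0.73 and -0.47 for Cdkn1a, 0.68 and -0.03 for Cdkn1b, 1.73 and 1.59 for Cdkn2c, 0.84 and 1.35 for Ccnd1, 0.36 and -0.03 for Ccnd2, and -0.69 and -0.34 for Ccnd3. Over all kept cells Ccnd2 fell in both models (-1.06 ± 0.26, edgeR adjusted p = 0.0303, and -1.29 ± 0.26, adjusted p = 0.0136).

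In T and NK cells 0 of 40 members were called in either model by edgeR (4.89% and 7.28% of all genes) and 0 by DESeq2, with 3 and 2 members at an unadjusted p under 0.05 (22.4% and 25.5% of all genes). Mki67 was 141 and 159 CPM in control mice, 140, 258 and 212 in HFD+F+CCl4 mice and 77.1, 120 and 277 in WD+F+CCl4 mice. Top2a was 196 and 224 CPM in control mice, 190, 337 and 309 in HFD+F+CCl4 mice and 157, 166 and 353 in WD+F+CCl4 mice. Stmn1 was 173 and 167 CPM in control mice, 168, 384 and 347 in HFD+F+CCl4 mice and 188, 114 and 387 in WD+F+CCl4 mice. The groups overlapped for all 3 genes, and the NASH mice spread widely.

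No member was above control in all 6 NASH mice in T and NK cells, where 9.87% of all genes were, and 2 members were below in all, where 17.5% of all genes were. Mcm2 was 72.7 and 65.0 CPM in control mice, 49.2, 54.9 and 42.8 in HFD+F+CCl4 mice and 47.9, 46.6 and 49.9 in WD+F+CCl4 mice (-0.47 ± 0.17, edgeR adjusted p = 0.132, and -0.35 ± 0.16, adjusted p = 0.218). Pcna was 228 and 255 CPM in control mice, 216, 217 and 202 in HFD+F+CCl4 mice and 147, 115 and 220 in WD+F+CCl4 mice. The median member was at 0.48 and 0.24, with 36 and 32 above 0. Below 0 were Mcm2, Mcm5, Pcna and Rrm1 in HFD+F+CCl4 mice and Mcm2, Pcna, Rrm1, Aurka, Bub1, Bub1b, Kif11 and Hmgb2 in WD+F+CCl4 mice. Between the models 0 members were called by edgeR, 0 by DESeq2 and 0 had an unadjusted p under 0.05.

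In DCs Stmn1 was again the member called, in HFD+F+CCl4 mice. It was 197 and 76.6 CPM in control mice, 407, 453 and 311 in HFD+F+CCl4 mice and 205, 286 and 319 in WD+F+CCl4 mice, all 6 above both control mice. The log2 fold change was 1.39 ± 0.34 (edgeR, adjusted p = 0.0387) in HFD+F+CCl4 mice, where 1 of 40 members stood beside 6.46% of all genes, and 0.88 ± 0.34 (edgeR, adjusted p = 0.128) in WD+F+CCl4 mice, where edgeR called 0 members beside 10.6% of all genes, 5 had an unadjusted p under 0.05 (26.1% of all genes) and DESeq2 called 2 (10.9% of all genes). Without control replicate 2 the HFD+F+CCl4 value was 0.93 and was no longer called, and without control replicate 1 it was 2.48 and called. The call was also lost when replicate 1 (1.37) or 2 (1.24) of the same group or replicate 2 of WD+F+CCl4 (1.38) was left out.

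Top2a in DCs was 164 and 126 CPM in control mice, 281, 434 and 245 in HFD+F+CCl4 mice and 182, 358 and 260 in WD+F+CCl4 mice (1.11 ± 0.33, edgeR adjusted p = 0.0721, in HFD+F+CCl4, where 8 members had an unadjusted p under 0.05 beside 22.6% of all genes). Nusap1 was 46.6 and 49.4 CPM in control mice, 96.8, 136 and 76.9 in HFD+F+CCl4 mice and 49.6, 117 and 97.3 in WD+F+CCl4 mice. Mcm7, Ccne2, Plk1, Bub1b and Cenpa completed the 8 members that were above control in all 6 NASH mice, beside 16.7% of all genes, and 0 were below in all, beside 15.6%. The median member was at 0.54 and 0.22, with Ccnb1 below 0 in HFD+F+CCl4 mice and Tyms, Rrm2, Cdk1, Ccnb1, Bub1 and Kif20a below 0 in WD+F+CCl4 mice. In WD+F+CCl4 against HFD+F+CCl4 DCs all 40 members were below 0, at a median of -0.20, the same direction as the marker shares, but edgeR and DESeq2 called 0 of them, with 3 at an unadjusted p under 0.05 beside 5.92% of all genes. HFD+F+CCl4 replicate 1 supplied 554 of its 751 DCs from the cluster with Hspa1a among its leading genes, and its part in these values was not tested.

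In B cells 20 members were tested and edgeR called 0 in either model, beside 2.74% and 4.89% of all genes, with 2 and 3 members at an unadjusted p under 0.05 (13.8% and 17.6%), and DESeq2 called 0. In endothelial cells 37 were tested and 0 called, beside 1.46% and 1.28%, with 5 and 9 at an unadjusted p under 0.05 (12.9% and 12.1%) and medians of 1.98 and 2.38, and DESeq2 called 1 in each (1.97% and 2.18% of all genes). The members summed to 767 and 929 CPM in the endothelial cells of control mice. HFD+F+CCl4 replicate 3 and WD+F+CCl4 replicate 2, with 36 and 25 endothelial cells, stood apart at 3452 and 3624 CPM, and the other NASH mice gave 964, 1119 and 1153. In all, 13 members had at most 3 UMIs in the control endothelial cells. WD+F+CCl4 replicate 1, with 9 endothelial cells, was not in that fit. Granulocytes were not tested, since each control mouse had to have 20 cells or more and control replicate 2 had 13.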

How the data were processed

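Livers of the 8 mice were dissociated with enzymes and run with the 10x Genomics Single-Cell 3' v3 chemistry. The authors deposited UMI counts, whole numbers for 55450 genes in 1 matrix of 88581 barcodes, made with bcl2fastq 2.20 and Cell Ranger on GRCm38 and not filtered for cell quality. The file header names an earlier Cell Ranger version than the methods. Whether doublets or free RNA had been removed: not given in the sources used here. Counting intervals and the limits of a count of 0 (3 cells) cover counting error only.

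The cells kept (over 500 genes, mitochondrial UMIs under 25%) were scaled to 10000 UMIs and clustered in scanpy 1.11.5 (2000 variable genes, 30 components, 20 neighbours, Leiden at a resolution of 1, leidenalg 0.10.2) without 287 cell cycle and histone genes. A cluster took a name from at least 3 detected markers. Doublets were taken by rank (Scrublet, 0.8% per 1000 barcodes) and kept, apart from 1 alternative. A name means cells like that type.

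UMI counts were summed per mouse and cell type and tested with edgeR 4.0.16 (limma 3.58.1, R 4.3.3, TMM scaling, genes filtered by filterByExpr at 10 counts, quasi-likelihood test) with the 8 mice in 1 fit, with Benjamini-Hochberg adjustment over all genes and a threshold of 0.05. DESeq2 1.42.0 was an alternative. Mice with under 20 cells of a type were left out. Exact two-sided permutation tests served for the shares (SciPy 1.17.1, Python 3.11.15). The steps were tested on simulated data, for the fits with 200 genes changed by 2 (log2) in WD+F+CCl4 mice. Against control, edgeR recovered 29% of these over all cells, 44.5% in phagocytes and 74.5% in T and NK cells. It also called 3, 5 and 18 unchanged genes. DESeq2 recovered 51.5%, 48% and 81%, and called 45, 10 and 36 unchanged genes. A member that was not called may therefore still differ. CPM are UMIs scaled to an equal total over the summed cells, and SE are on the log2 scale. Each mouse gave its own library, so the p-values of the group comparisons measure the spread between mice, from which that between libraries cannot be separated. In the fits of cells with against cells without a marker, mouse was a block. Those p-values rest on the differences within mice.

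The members, the 137 other cell cycle genes and the marker lists were chosen with earlier results of these data known. Values per mouse are given for Mki67, Top2a, the 2 members of each role group with the highest mean CPM over all cells and the called members with the largest changes; other members were named after their values were seen. Outside both lists, the 10 largest rises and 5 largest falls over an average log2 CPM of 5 are named. The alternatives changed the limits on genes or mitochondrial UMIs, removed doublets, and tried naming cell by cell, other normalization and filters, thinning to 1000 or 700 UMIs, stricter marker definitions, a replicate block and leaving out each mouse. Added after seeing the data were the removal of the unnamed clusters and of the 2 phagocyte clusters mostly from HFD+F+CCl4 replicate 1.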

Additional observations from a re-analysis of the deposited data

Results flagged for a closer look

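Mcm2 lay on opposite sides of the control mice in mononuclear phagocytes and in T and NK cells, and passed the test in neither (edgeR, adjusted p = 0.264 and 0.0766 in the HFD+F+CCl4 and WD+F+CCl4 phagocytes, 0.132 and 0.218 in T and NK cells). The lowest NASH phagocyte value, 9.68 CPM, was above the highest control value, 7.53, which was 2 UMIs, whereas in T and NK cells the highest NASH value, 54.9 CPM, was below the lowest control value, 65.0, and the log2 differences from control were 1.72 apart. That difference was not tested. Cenpa was above both control mice in the DCs of all 6 NASH mice (53.8 CPM in the lowest, 50.04 in the highest control mouse) and below them in B cells (40.7 CPM in the highest, 47.8 in the lowest control mouse), 1.53 apart, also not tested. It passed the test in neither (edgeR, adjusted p = 0.237 and 0.418 in DCs, 0.579 and 0.275 in B cells), and the 40.7 CPM came from 2 UMIs in the 21 B cells of HFD+F+CCl4 replicate 3.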

How the results depend on the processing

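Over 26 results, 413 alternatives were run, of which 324 kept direction and side of the threshold, 55 lost a call, 20 gained one and 14 turned the sign. All members tested stayed higher in marker-bearing cells without each mouse in turn (35 to 38 called in phagocytes, 38 in T and NK cells), and the NASH phagocyte share stayed above control in all 17 alternatives. Phagocyte calls against control, 2 in each model, were 13 (HFD+F+CCl4) and 20 (WD+F+CCl4) with DESeq2, 21 and 28 with no filter beyond 1 count and 1 and 1 with more than 1000 genes per cell. Naming cells individually gave 1 in HFD+F+CCl4 mice. Leaving out a mouse gave 0 to 5 and 0 to 9, with 0 in HFD+F+CCl4 when either control mouse, replicate 1 or 2 of the same group or replicate 2 of WD+F+CCl4 was left out. WD+F+CCl4 had 0 without either control mouse or its own replicate 2, 9 without its own replicate 1, and 1 without the first HFD+F+CCl4 mouse. Over all cells the HFD+F+CCl4 count was 2 with DESeq2 and 0 to 2 without a mouse (0 without control replicate 2), and the WD+F+CCl4 count stayed 1. T and NK cells gave 7 (HFD+F+CCl4) and 1 (WD+F+CCl4) with no filter beyond 1 count, and 0 to 1 without a mouse (HFD+F+CCl4). The single call over DCs, B and endothelial cells became 8 with DESeq2, 39 with no such filter, 2 without doublets and 0 to 2 without a mouse. The replicate block gave 0 calls against control in phagocytes, over all cells and in the other cell types. Deviations of same-numbered mice from their group means correlated at -0.648 to 0.0903. With 2 or 3 mice in a group, deviations from its mean depend on each other. These correlations therefore cannot show whether the numbers pair the mice.

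The share over all cells in NASH against control turned to -3.17 and -1.79 percentage points when thinned to 1000 and 700 UMIs and to -0.478 with more than 1000 genes. In T and NK cells it turned to -1.23 and -1.27 when thinned, and ran from -0.219 to 4.87 without a mouse. In phagocytes WD+F+CCl4 against HFD+F+CCl4 became 0.0235 thinned to 700 UMIs, 0.614 with at least 2 UMIs, 0.78 with both genes and -3.44 to 1.80 without a mouse. The difference between phagocytes and T and NK cells became -1.68 with more than 1000 genes and -0.116 when naming cells individually. The causes were not tested. Limits are the 2 control mice, the depth of control replicate 2 and the few control phagocytes, in which 22 members had at most 10 UMIs.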
